A study of Bos taurus and Bos indicus with 12 samples.

Results

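The proteasome subunits were examined as 35 genes of the 9155 that the array names with a single symbol. Members were all genes whose platform symbol is PSMA, PSMB, PSMC, PSMD or PSME followed by digits, and each was represented by its probe set of highest mean over 12 arrays. A probe set is the group of short oligonucleotides on the array that reports on a transcript. The 35 genes had 41 probe sets, and PSMB2, PSMC2, PSMC5, PSMC6, PSMD4 and PSMD6 had 2 each. By role, the members were 6 subunits of the alpha ring, 7 of the constitutive beta ring, 3 catalytic subunits of the immunoproteasome, 9 subunits of the base, 4 of the lid, 3 assembly chaperones of the base and 3 activators. PSMA2, PSMA8, PSMB11, PSMD3, PSMD7, PSMD8, PSMD12 and PSME3 carry no probe set with that symbol and were not analysed here.

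Whole skin was sampled from 12 female cattle of 2 breeds, Holstein-Friesian, a taurine dairy breed, and Brahman, an indicine breed known for its resistance to the cattle tick Rhipicephalus microplus. Each group held 3 animals with 1 Affymetrix bovine array per animal. Naive Holstein-Friesian cattle were 12 months old and naive Brahman cattle 18 months, whereas infested animals of both breeds were 6 months old and had been through successive heavy infestations, so age and infestation cannot be told apart within a breed. Biopsies 8 mm across and 10 mm deep were taken, in infested animals at sites where larvae of about 24 h were attached. Values are expression on the log2 scale, made by robust multi-array averaging (RMA), and are given in the order of replicates 1, 2 and 3.

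The proteasome is the large protease that degrades proteins marked with ubiquitin. Its barrel-shaped core is built of alpha rings, which gate the entrance, and beta rings, in which PSMB5, PSMB6 and PSMB7 cut proteins; under interferon, PSMB8, PSMB9 and PSMB10 can take their places in newly built cores and form the immunoproteasome, which is known for supplying peptides to MHC class I molecules. A cap made of a base, with ATPases that unfold the substrate, and a lid, which removes the ubiquitin, sits on the core, and in skin this machinery serves both routine protein turnover and antigen presentation.

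The 12 arrays differed in RNA integrity, read as the mean 5' minus 3' log2 signal of 5 control transcripts, and a lower index stands for a weaker 5' signal. The index lay between -1.39 and -0.82 on the 6 naive arrays. It was -2.73, -0.75 and -1.23 on the infested Holstein-Friesian arrays and -4.91, -2.56 and -2.07 on the infested Brahman arrays, so infested Brahman 1 and infested Holstein-Friesian 1 were the lowest. Keratin and collagen markers of skin were among the brightest probe sets on every array. The mean level of 8 macrophage markers, relative to the naive mean, was 1.62 to 1.87 in infested Holstein-Friesian and 1.1 to 1.43 in infested Brahman skin against -0.54 to 0.67 in naive skin. Fibroblast markers (6 measured) lay at 0.84 to 1.33 in infested and -0.38 to 0.41 in naive skin, and 5 keratinocyte markers at -0.41 to 0.19 and -0.27 to 0.24. The 4 B and plasma cell markers lay at 0.98 to 1.33 in infested Holstein-Friesian skin, above naive Holstein-Friesian skin at -0.22 to 0.28, and at -0.39 to 0.90 in infested Brahman skin, overlapping naive Brahman skin at -0.41 to 0.64. The 3 adipocyte markers lay at 0.88 to 1.08 in infested Brahman skin, above naive Brahman skin at -1.04 to 0.75. They overlapped in Holstein-Friesian skin, at -0.25 to 0.47 in infested and -0.47 to 0.75 in naive animals. The 3 neutrophil markers lay at -0.64 to -0.27 in infested Holstein-Friesian skin, below naive Holstein-Friesian skin at -0.23 to 0.77. They overlapped in Brahman skin, at -2.31 to -0.48 in infested and -1.30 to 0.35 in naive animals. The 5 skeletal muscle markers lay at -0.87, 0.97 and 1.09 in naive and at -0.80, -0.55 and -0.74 in infested Brahman skin. In Holstein-Friesian skin they lay at -0.83 to 0.04 in naive and -0.95 to -0.53 in infested animals. Markers of T and NK cells (9 measured) and of endothelium (5 measured) overlapped between naive and infested skin in both breeds. None of these values has a true zero on an RMA scale, and the part of such shifts in cell makeup in the results below was not tested. In whole skin, fewer cells of a type and less RNA per cell cannot be told apart.

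All 35 members were bright probe sets: their mean signals lay between 7.98 and 12.21, with a median of 10.26 against 6.70 over all 24016 probe sets tested. In infested Brahman skin 7 members fell (PSMB6, PSMA5, PSMC5, PSMC2, PSMB7, PSMB5 and PSMC4) and 1, the lid subunit PSMD11, rose. In infested Holstein-Friesian skin PSMB6 and the assembly chaperone PSMD10 fell and no member rose. PSMB6, the caspase-like catalytic subunit, was the member that fell in both breeds. The 3 immunoproteasome catalytic subunits and the activators PSME1 and PSME2 did not pass the test in either breed.

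Counts were read against those over the whole array. In Brahman cattle, 8 of 35 members (22.9%) had an adjusted p under 0.05 (limma, Benjamini-Hochberg) beside 19.8% of all probe sets, so the total share was near the background. The 7 that fell were 20% of the members beside 10.2% of all probe sets, and the 1 that rose was 2.86% beside 9.54%. In Holstein-Friesian cattle, 2 of 35 members (5.71%) passed beside 5.02% of all probe sets. Both of them fell, beside 2.34% of probe sets called lower, and 0 members rose, beside 2.68% called higher. When single arrays were left out, the Brahman count was 3 without naive Brahman 2, 2 without naive Brahman 3 and 7 to 10 otherwise. The Holstein-Friesian count was 4 without infested Brahman 1, 2 without infested Brahman 2 and 0 or 1 without any other array. The number of calls over all probe sets also changed widely with the array left out, and its range is given in the section on processing. These member counts were not separated from that change.

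The median log2 difference over the members was -0.26 in Brahman cattle, with 26 of 35 members below zero, against a median of 0.04 over all probe sets. In Holstein-Friesian cattle it was -0.12, with 24 of 35 below zero, against -0.03. Infested and naive Brahman values did not overlap in 14 members that were lower (40%, beside 19.3% of all probe sets) and in 3 that were higher (8.57%, beside 19.3%). In Holstein-Friesian cattle the same held for 8 members that were lower (22.9%, beside 16%) and 2 that were higher (5.71%, beside 14.4%). These shares and medians describe the members and carry no test of their own.

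**Figure D1:**
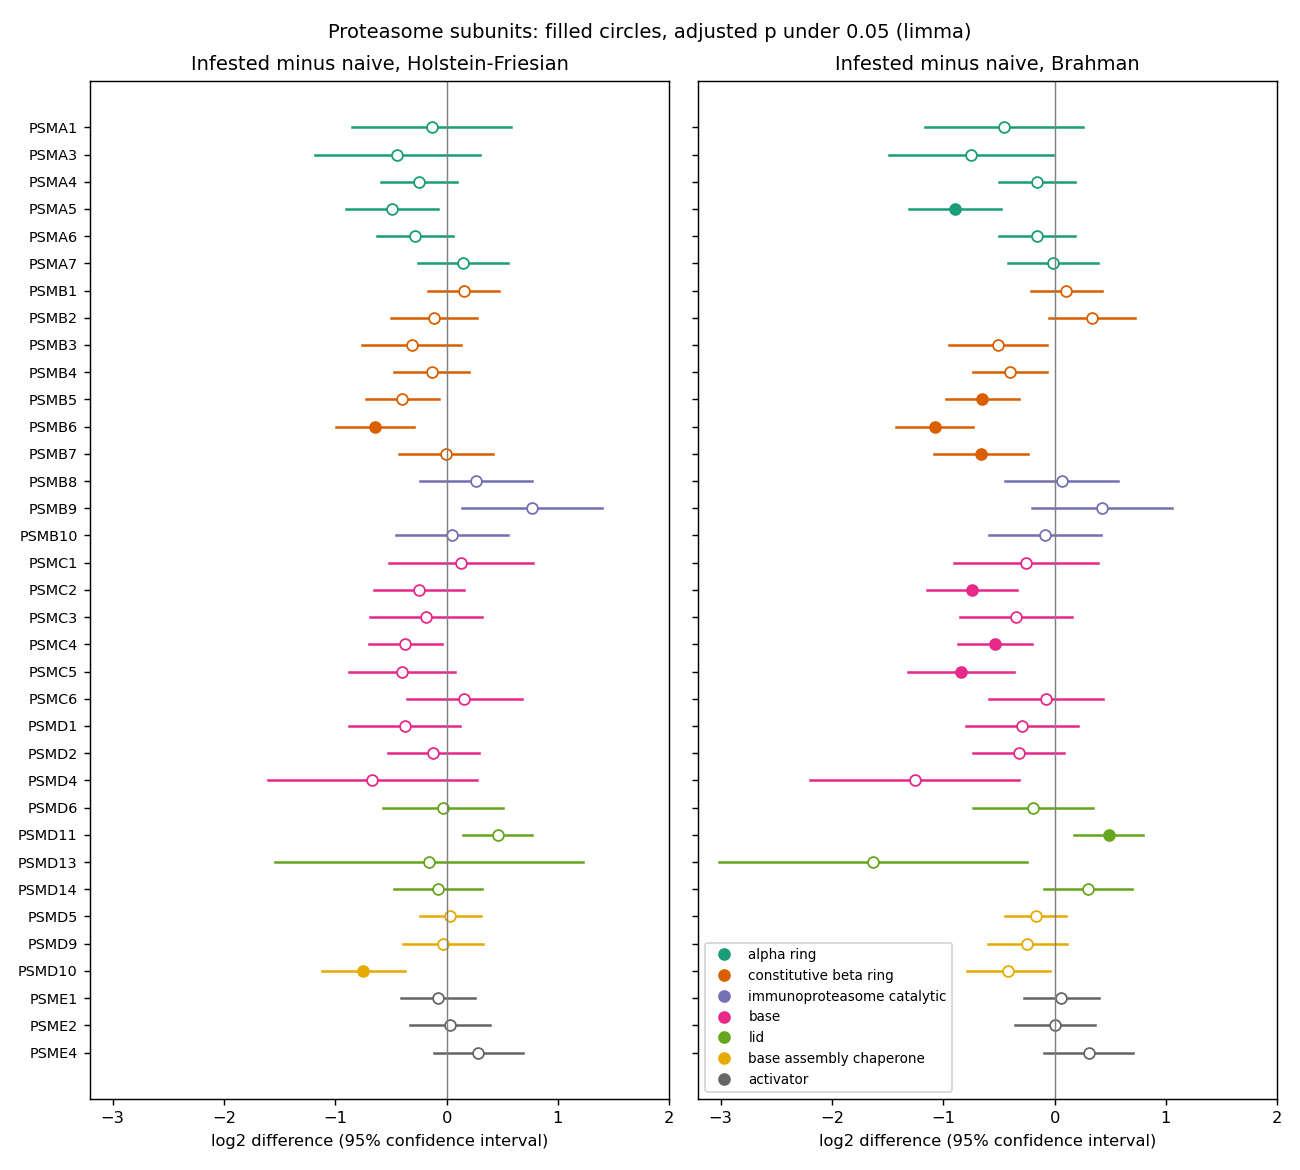
Log2 difference between infested and naive skin (x axis) for each of the 35 members (y axis), in Holstein-Friesian (left) and Brahman cattle (right), 3 against 3 arrays, with bars for the 95% confidence interval, colours for the role and filled circles for an adjusted p under 0.05. The largest fall that passed was PSMB6 in Brahman cattle at -1.08, and PSMD11 at 0.48 was the member that rose.

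The 3 constitutive catalytic subunits fell in infested Brahman skin, and with them 3 of the 7 members of their ring passed (42.9%, beside 10.2% of all probe sets called lower). PSMB6, which makes the caspase-like cut, read 11.36, 11.59 and 11.54 in naive Brahman skin and 10.20, 10.63 and 10.44 in infested Brahman skin. It read 11.25, 11.57 and 11.53 in naive and 10.72, 10.69 and 11.01 in infested Holstein-Friesian skin. All 6 infested arrays thus lay below all 6 naive arrays. The difference was -1.08 ± 0.16 (SE, 3 against 3 arrays), a 2.11-fold fall, in Brahman cattle (limma, adjusted p = 0.0020) and -0.64 ± 0.16, a 1.56-fold fall, in Holstein-Friesian cattle (limma, adjusted p = 0.0432). The Brahman call stood in all 12 fits that left out a single array. In such fits, leaving out an array of the other breed changes only the spread estimate that all groups share and not the difference. The Holstein-Friesian call stood in 2 of 12, those without infested Brahman 1 or infested Brahman 2. Without any other array the sign was the same and the adjusted p (limma) lay between 0.0533 and 0.152. After median centring the adjusted p (limma) was 0.0542, and the call was also lost in the fit on the 6 Holstein-Friesian arrays alone.

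PSMB5, the chymotrypsin-like subunit, was likewise lower on all 6 infested arrays than on any naive one. Its values were 11.14, 11.44 and 11.57 in naive and 10.64, 10.91 and 10.65 in infested Brahman skin, and 11.01, 11.19 and 11.21 in naive and 10.59, 10.79 and 10.84 in infested Holstein-Friesian skin. The fall passed in Brahman cattle (-0.65 ± 0.15, limma adjusted p = 0.0135), though not without naive Brahman 3 (limma, adjusted p = 0.0597). In Holstein-Friesian cattle the difference was -0.40 ± 0.15 and did not pass (limma, adjusted p = 0.148).

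PSMB7, the trypsin-like subunit, read 10.33, 10.89 and 10.65 in infested Brahman skin against 11.06, 11.47 and 11.30 in naive Brahman skin, without overlap. In Holstein-Friesian skin infested values of 10.99, 11.26 and 11.54 spanned the naive values of 11.09, 11.33 and 11.38. PSMB7 fell in Brahman cattle (-0.66 ± 0.19, limma adjusted p = 0.0355), and the Holstein-Friesian difference was -0.01 with a 95% interval of -0.43 to 0.42. The Brahman call was lost without naive Holstein-Friesian 2, naive Brahman 2, naive Brahman 3, infested Brahman 1 or infested Brahman 3, with adjusted p (limma) of 0.0502, 0.12, 0.101, 0.0889 and 0.0624.

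**Figure D2:**
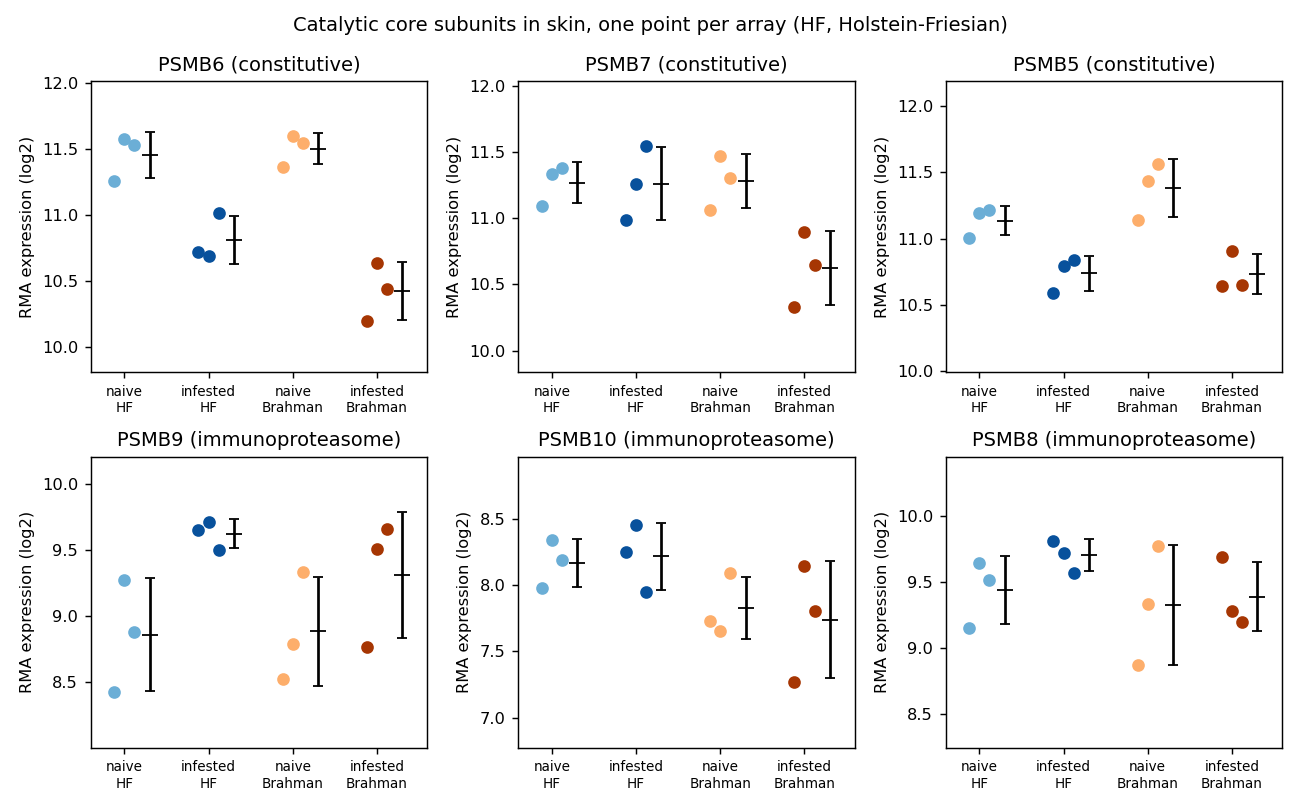
RMA expression (y axis, log2) of the 3 constitutive catalytic subunits (top) and the 3 immunoproteasome subunits (bottom) in the 4 groups (x axis), with a point per array and bars for the mean and SD of 3 arrays. PSMB6 on all 6 infested arrays, at 10.20 to 11.01, lies below the naive arrays at 11.25 to 11.59, while PSMB8, PSMB9 and PSMB10 overlap between naive and infested Brahman skin.

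The inducible counterparts did not pass the test in either direction. With array weights, an alternative fit that called more probe sets over the whole array, PSMB9 passed as higher in Holstein-Friesian cattle. PSMB9, which takes the place of PSMB6, read 8.42, 9.27 and 8.88 in naive and 9.65, 9.71 and 9.50 in infested Holstein-Friesian skin, without overlap. In Brahman skin it read 8.53, 8.79 and 9.33 in naive and 8.76, 9.50 and 9.66 in infested animals, with overlap. The differences were 0.76 ± 0.29 (95% interval 0.14 to 1.39, limma adjusted p = 0.148) in Holstein-Friesian and 0.42 ± 0.29 (-0.20 to 1.05, limma adjusted p = 0.316) in Brahman cattle.

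PSMB8, the inducible counterpart of PSMB5, ranged from 8.87 to 9.78 on naive and from 9.20 to 9.81 on infested arrays. Its difference was 0.26 (95% interval -0.24 to 0.77) in Holstein-Friesian and 0.06 (-0.44 to 0.57) in Brahman cattle. PSMB10, the counterpart of PSMB7, ranged from 7.66 to 8.34 and from 7.27 to 8.46, with differences of 0.05 (-0.45 to 0.55) and -0.09 (-0.59 to 0.42). In the RefSeq gene order of the ARS-UCD2.0 assembly, PSMB8 and PSMB9 have 1 gene between them, the peptide transporter TAP1, and PSMB5 lies next to PSMB11.

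Because each inducible subunit replaces a constitutive one, the pairs were also set against each other on the same array, as the log2 value of the inducible minus that of the constitutive subunit. The size of such a difference depends on the probes, so its change between groups is what can be read. It shows unequal change within the pair and not which subunit moved. PSMB9 minus PSMB6 was -2.83, -2.30 and -2.65 in naive and -1.07, -0.97 and -1.52 in infested Holstein-Friesian skin. In naive Brahman skin it was -2.84, -2.80 and -2.21, and in infested Brahman skin -1.44, -1.13 and -0.78. All 6 infested arrays lay above all 6 naive arrays, and the group means moved by 1.41 log2 in Holstein-Friesian and 1.5 log2 in Brahman cattle.

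The PSMB8 and PSMB5 pair moved by 0.66 log2 in Holstein-Friesian and 0.71 log2 in Brahman cattle. Its naive values lay between -1.86 and -1.54 in Holstein-Friesian and between -2.27 and -1.79 in Brahman skin, and infested values lay between -1.26 and -0.78 and between -1.63 and -0.95. The groups did not overlap within a breed, though the ranges of the 2 breeds together do. For PSMB10 minus PSMB7 the naive values of -3.19 to -2.99 lay within the infested range of -3.59 to -2.74 in Holstein-Friesian skin. In Brahman skin naive values of -3.81 to -3.21 were all below infested values of -3.06 to -2.75. These pairs are a description and were not tested.

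**Figure D3:**
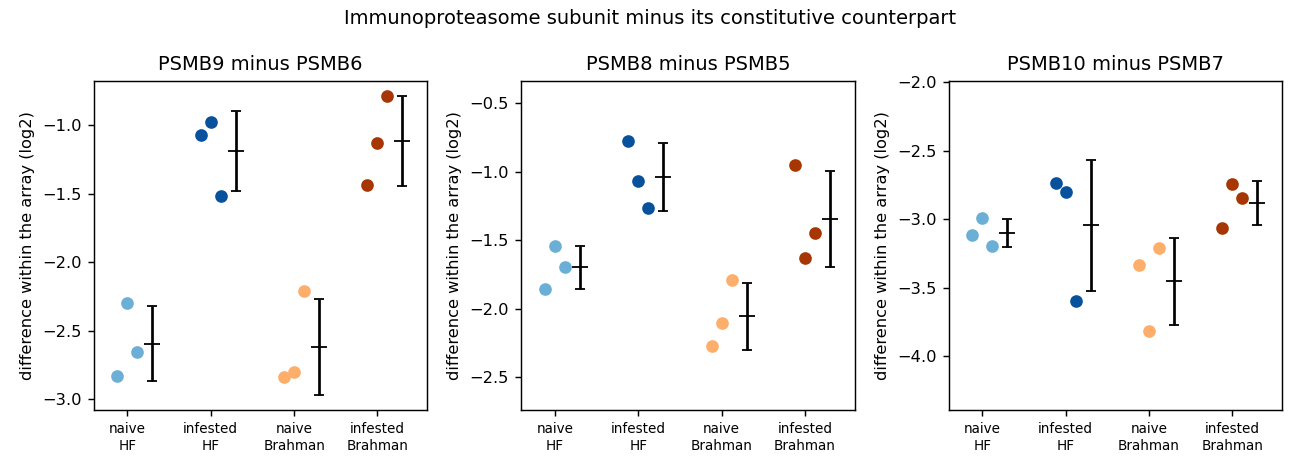
Log2 expression of each immunoproteasome subunit minus that of the constitutive subunit it replaces (y axis, difference within an array) in the 4 groups (x axis), with a point per array and bars for the mean and SD of 3 arrays. For PSMB9 minus PSMB6 the infested arrays, at -1.52 or higher, are separated from the naive arrays, at -2.21 or lower.

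In the alpha ring, whose subunits gate the core, PSMA5 fell in Brahman cattle and the other 5 measured subunits did not pass. PSMA5 read 10.75, 11.24 and 11.19 in naive and 10.33, 10.27 and 9.91 in infested Brahman skin, a fall of 0.89 on the log2 scale (SE 0.19, 1.85-fold, limma adjusted p = 0.0095). The Holstein-Friesian values were 10.90, 11.30 and 10.95 in naive and 10.36, 10.58 and 10.73 in infested skin (-0.49 ± 0.19, limma adjusted p = 0.154). In both breeds the groups did not overlap, and the Brahman call stood in all 12 fits that left out an array. Of these fits, those without a Holstein-Friesian array changed only the shared spread. All 6 alpha subunits had negative Brahman differences, with a median of -0.31. In the constitutive beta ring, with a Brahman median of -0.51, the noncatalytic PSMB1, PSMB2, PSMB3 and PSMB4 did not pass. Of these, PSMB3 and PSMB4 were lower without overlap in Brahman skin (-0.51 and -0.40, limma adjusted p = 0.0957 and 0.0865).

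The base of the cap unfolds substrates through a ring of ATPases, PSMC1 to PSMC6, and 3 of the 6 fell in Brahman cattle on the probe sets used. They were the 3 called lower among the 9 base subunits (33.3%, beside 10.2% of all probe sets). PSMC2 read 10.76, 10.98 and 11.001 in naive and 10.37, 10.06 and 10.08 in infested Brahman skin, a 1.67-fold fall (-0.74 ± 0.18, limma adjusted p = 0.0185). PSMC4 read 10.12, 10.40 and 10.23 against 9.94, 9.69 and 9.52, a 1.45-fold fall (-0.53 ± 0.15, limma adjusted p = 0.0311). PSMC5 read 10.51, 10.62 and 10.55 against 9.20, 9.79 and 10.17, a 1.79-fold fall (-0.84 ± 0.22, limma adjusted p = 0.0217). Infested Brahman 1, the array of lowest RNA integrity, was the lowest of the PSMC5 values. It was the highest of the infested Brahman PSMC2 and PSMC4 values. PSMC2 lost its call without naive Brahman 2, naive Brahman 3 or infested Brahman 2, PSMC5 without naive Brahman 2 or 3, and PSMC4 without naive Brahman 2 or 3 or infested Brahman 2 or 3 (limma, adjusted p up to 0.0691, 0.0682 and 0.11). In Holstein-Friesian cattle none of the 9 base subunits passed, and the median was -0.25 against -0.35 in Brahman cattle.

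For the genes of the base with a further probe set, the probe sets did not always go the same way. The other PSMC2 probe set was at 0.31 in Brahman cattle (limma, adjusted p = 0.188) where the first was at -0.74, and PSMC2 is therefore uncertain. The other PSMC5 probe set stood at 0.01 (limma, adjusted p = 0.973). PSMD4, a ubiquitin receptor of the base, read 10.77, 10.46 and 10.45 in naive and 7.96, 9.93 and 10.03 in infested Brahman skin. Its difference of -1.26 ± 0.43 did not pass (limma, adjusted p = 0.0605), while its other probe set fell by 1.77 (SE 0.51, limma adjusted p = 0.0336). Without infested Brahman 1 the PSMD4 difference was -0.58 and passed (limma, adjusted p = 0.0214). In Holstein-Friesian skin PSMD4 read 10.67, 10.41 and 10.54 against 9.82, 9.81 and 9.99, again without overlap (-0.67 ± 0.43, limma adjusted p = 0.40). Leaving infested Brahman 1 out of the shared spread brought that adjusted p (limma) to 0.0137.

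The lid held the member that rose. PSMD11, a scaffold subunit of the lid, read 10.94, 11.11 and 10.85 in naive and 11.19, 11.52 and 11.65 in infested Brahman skin, a 1.4-fold rise (0.48 ± 0.14, limma adjusted p = 0.0341). In Holstein-Friesian skin it read 10.95, 10.94 and 11.07 against 11.43, 11.49 and 11.42, a difference of 0.46 ± 0.14 that did not pass (limma, adjusted p = 0.0861). All 6 infested arrays lay above all 6 naive arrays. The Brahman call was lost without naive Holstein-Friesian 1, without any of the 3 naive Brahman arrays, or without infested Brahman 2 or 3 (limma, adjusted p 0.0507 to 0.119). The Holstein-Friesian difference passed without infested Brahman 1 (limma, adjusted p = 0.0312). It also passed without the 2 arrays of lowest index, with the index as a covariate and with array weights. PSMD14, the deubiquitinase of the lid, was higher without overlap in Brahman skin but did not pass (0.30, 3 against 3 arrays).

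PSMD13, another scaffold subunit of the lid, spread the most. It read 8.45, 8.60 and 8.53 in naive and 5.10, 7.67 and 7.91 in infested Brahman skin, and 7.97, 8.59 and 8.40 against 7.23, 8.61 and 8.66 in Holstein-Friesian skin. The low values followed the arrays of low integrity index. The Brahman difference of -1.63 ± 0.63 did not pass (limma, adjusted p = 0.0896) and became -0.74 without infested Brahman 1 (limma, adjusted p = 0.191).

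Among the base assembly chaperones, PSMD10 (gankyrin), which escorts ATPases of the base during assembly, fell in Holstein-Friesian cattle. It read 8.37, 8.69 and 8.35 in naive and 7.76, 7.49 and 7.92 in infested skin, a 1.68-fold fall (-0.75 ± 0.17, limma adjusted p = 0.0335). The call was lost with the replicate number as a block (limma, adjusted p = 0.0559), which left PSMB6 as the 1 member called in that comparison, and without any naive Holstein-Friesian array, naive Brahman 2 or infested Holstein-Friesian 2 or 3 (limma, adjusted p 0.0539 to 0.125). In Brahman skin it read 8.30, 8.40 and 8.49 against 8.15, 8.09 and 7.71, without overlap and without passing (-0.42, limma adjusted p = 0.104). PSMD5 and PSMD9 did not pass in either breed.

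The activators open the gate of the core in place of the cap. PSME1 and PSME2, the subunits of the interferon-inducible ring PA28, lie with 1 gene between them in the RefSeq order. PSME1 ranged from 10.37 to 10.71 on naive and from 10.45 to 10.84 on infested arrays, and PSME2 from 9.76 to 10.18 and from 9.75 to 10.25. The PSME1 difference was -0.08 in Holstein-Friesian and 0.06 (95% interval -0.27 to 0.40) in Brahman cattle, and that of PSME2 was 0.03 and 0.00 (-0.36 to 0.36). PSME4, a single-chain activator, was higher in infested Brahman skin without overlap, at 9.41, 9.16 and 8.91 against 8.80, 8.86 and 8.90 (0.30), and did not pass.

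RNA integrity moved with several of these differences. In Brahman cattle, leaving out infested Brahman 1 and infested Holstein-Friesian 1 kept 7 of the 8 calls. PSMB7 was lost (limma, adjusted p = 0.0509), and PSMA1, PSMA3, PSMD4 and PSMD13 were added as lower. That made 10 members lower (28.6%, beside 14% of all probe sets in that fit). When the index entered the model as a covariate, 2 of the 8 calls remained, PSMB6 (-0.85, limma adjusted p = 0.0371) and PSMD11 (0.73, limma adjusted p = 0.0321). These were 5.71% of the members, beside 7.53% of all probe sets in that fit. Of the 6 calls lost, the differences of PSMB7 and PSMC5 shrank to -0.27 and -0.22 and that of PSMB5 to -0.48, while those of PSMA5 (-0.90), PSMC2 (-0.67) and PSMC4 (-0.62) stayed near their size. PSMD13, not called before, was then at 0.47 and did not pass. As all 3 infested Brahman arrays lay below every naive array in the index, the share of the index and of infestation in these differences cannot be told apart beyond these fits. For Holstein-Friesian cattle, PSMB6 and PSMD10 kept their calls in both fits, and PSMD11 was added as higher in both. PSMD4 was added as lower without the 2 arrays. Both fits also called more probe sets over the whole array in that comparison.

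**Figure D4:**
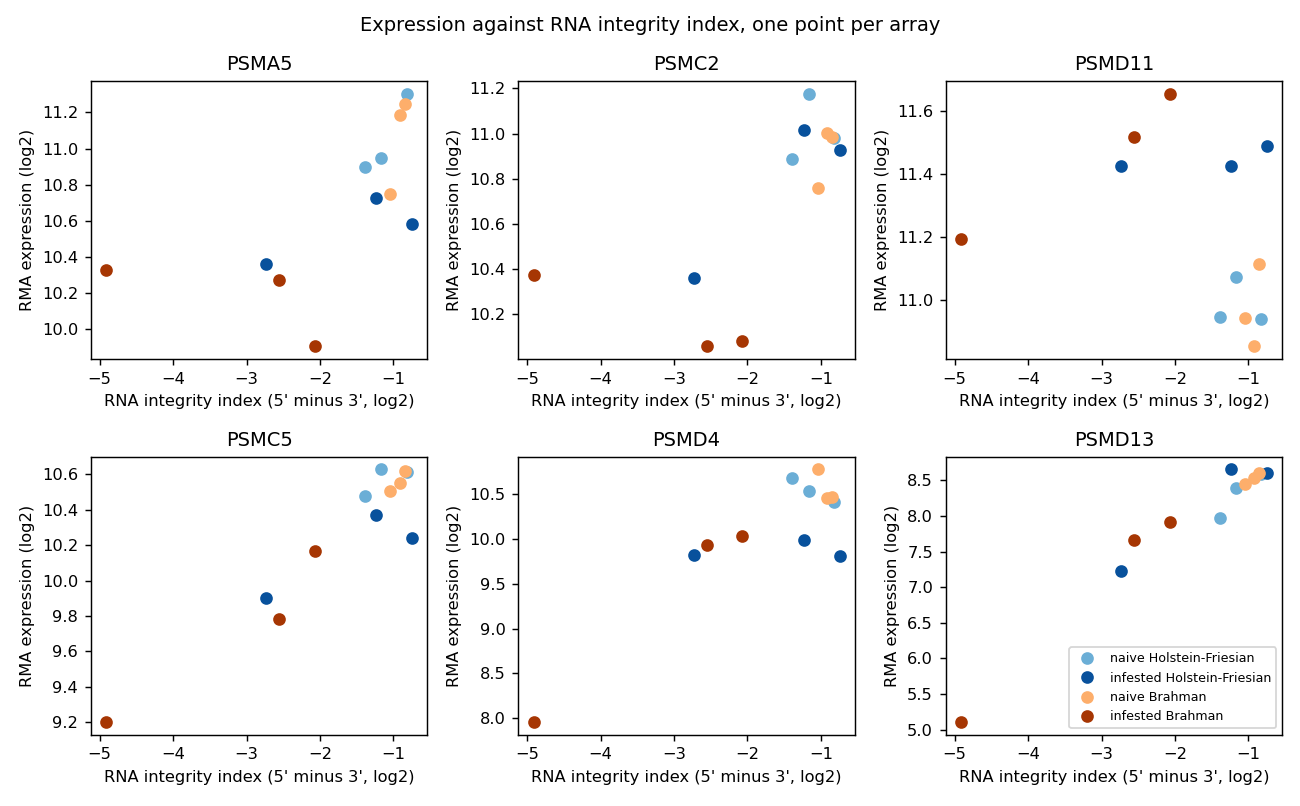
RMA expression (y axis, log2) against the RNA integrity index (x axis, 5' minus 3' log2 signal) of 6 members, with a point per array and colours for the 4 groups. PSMD13 and PSMC5 reach their lowest values, 5.10 and 9.20, on the array at -4.91, while PSMA5 and PSMC2 are lowest on infested Brahman arrays of higher index.

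**Figure D5:**
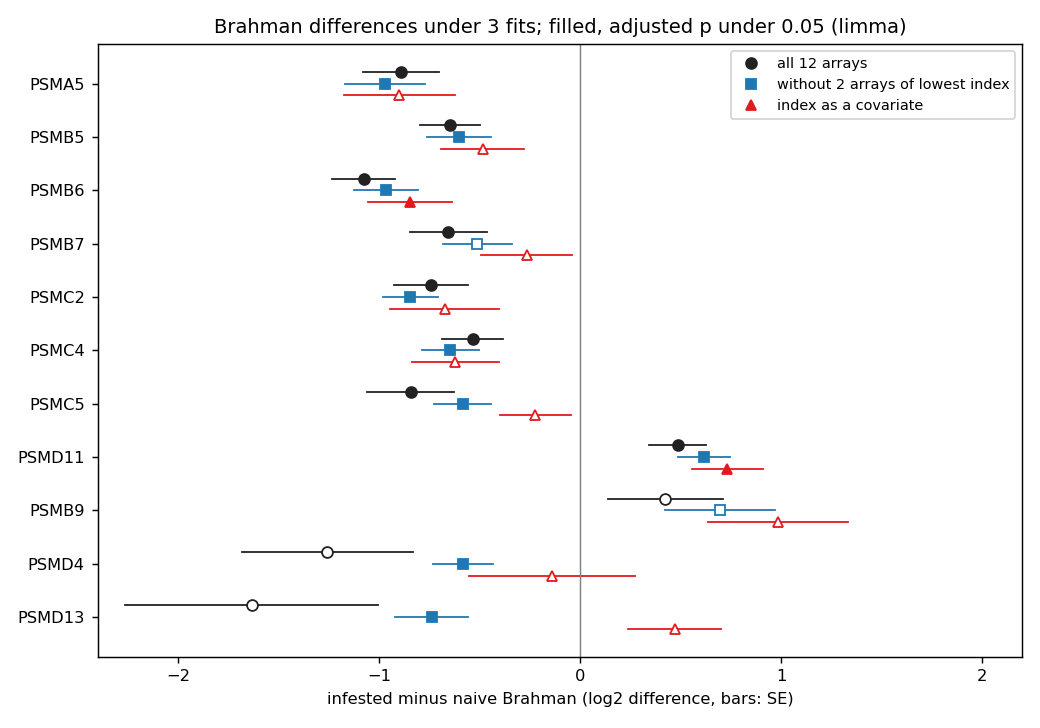
Infested minus naive Brahman difference (x axis, log2, bars for the SE) of 11 members (y axis) with all 12 arrays, without the 2 arrays of lowest integrity index, and with that index in the model, where filled symbols have an adjusted p under 0.05. PSMB6 and PSMD11 are filled in all 3 fits, and PSMD13 goes from -1.63 to 0.47 without being filled at either end.

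Between the breeds, 0 of 35 members passed among naive animals (limma), beside 0.025% of all probe sets, and 1 member, PSMA4, had an unadjusted p under 0.05. At that unadjusted threshold, 606 of all 24016 probe sets were higher and 543 lower. The naive Holstein-Friesian cattle were 12 months old and the naive Brahman cattle 18 months, so breed and age cannot be told apart in this comparison. The median over members was 0.01. PSMA4, an alpha ring subunit, read 9.90, 9.99 and 10.24 in Holstein-Friesian and 10.25, 10.69 and 10.36 in Brahman skin, without overlap (0.39 ± 0.16, limma adjusted p = 0.893). The next smallest p-values belonged to PSMB5 (0.25), PSMD5 (0.20), PSMB10 (-0.34) and PSMB2 (-0.22), none passing. In all, 4 members did not overlap between the naive breeds (11.4%, beside 14.5% of all probe sets).

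Among infested animals of equal age, 0 of 35 members passed (limma) beside 0.167% of all probe sets. At an unadjusted p under 0.05 (limma), 2 of the 35 members were higher and 3 lower, beside 1844 higher and 1273 lower of all 24016 probe sets. The median over members was -0.15 against 0.05 over all probe sets. PSMB7 was at -0.64 ± 0.19 (limma, adjusted p = 0.241), PSMC2 at -0.60 ± 0.18 (0.247), PSMB6 at -0.38 ± 0.16 (0.348) and PSMD14 at 0.41 ± 0.18 (0.371). PSMA4 was again higher in Brahman skin, at 10.24, 10.29 and 10.30 against 9.70, 9.69 and 10.00, without overlap (0.48 ± 0.16, limma adjusted p = 0.266). In all, 3 members were lower without overlap (8.57%, beside 4.16% of all probe sets) and 1, PSMA4, was higher (2.86%, beside 9.24%). Without the 2 arrays of lowest index, PSMA1, PSMA3, PSMC2 and PSMD13 passed as lower in infested Brahman skin (11.4% of members, beside 5.4% of all probe sets lower and 9.16% called in either direction in that fit).

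Whether the response to infestation differed between breeds was tested as the difference of the 2 differences. The age gap between naive and infested animals was not the same in the 2 breeds, so breed and age cannot be told apart in this test. No member passed (0 of 35, limma), beside 0.00416% of all probe sets, and 1 member, PSMB7, had an unadjusted p under 0.05. At that unadjusted threshold, 969 of all 24016 probe sets were higher and 823 lower. PSMB7 stood at -0.65 ± 0.27 (limma, adjusted p = 0.658), PSMB6 at -0.43 ± 0.22 (0.662), PSMC2 at -0.50 ± 0.26 (0.662), PSMB2 at 0.45 ± 0.25 (0.674) and PSMD13 at -1.48 ± 0.89 (0.688). The larger number of calls in Brahman than in Holstein-Friesian cattle therefore does not show that any single member responded differently. Without the 2 arrays of lowest index, PSMC2 and PSMD13 passed as lower in this test (5.71% of members, beside 3.31% of all probe sets lower and 4.71% called in either direction in that fit). The other PSMC2 probe set stood at 0.30 in the test on 12 arrays, in the opposite direction.

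The helpers of the proteasome outside the named families were described from lists chosen with earlier results known. Of 15 measured assembly factors, cofactors and inhibitors, 1 rose and 1 fell in Holstein-Friesian cattle (13.3%, beside 5.02% of all probe sets), and 1 rose and 6 fell in Brahman cattle (46.7%, beside 19.8%). UBE3C, a ubiquitin ligase that binds the proteasome, fell by 0.92 in Holstein-Friesian (limma, adjusted p = 0.0158) and by 0.71 in Brahman cattle (limma, adjusted p = 0.0143). UBQLN2, a shuttle that brings ubiquitinated proteins to it, rose by 0.64 (limma, adjusted p = 0.0177) and by 0.71 in the same order (limma, adjusted p = 0.0037). PAAF1, which binds ATPases of the base, and ADRM1, a ubiquitin receptor of the cap, fell in Brahman cattle by 1.46 and 0.97 (limma, adjusted p = 0.0087 and 0.0133). Without the 2 arrays of lowest index, 1 of the 15 was higher and 7 were lower in Brahman cattle, beside 14% of all probe sets called lower in that fit. When the integrity index entered the model 0 of the 15 passed in Brahman cattle (limma), beside 7.53% of all probe sets. The differences of PAAF1, ADRM1 and UBE3C then shrank to -0.81, -0.37 and -0.45, while UBQLN2 stood at 0.63 (limma, adjusted p = 0.0502).

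Of 13 measured genes of ubiquitin supply and proteasome gene regulation, 0 passed in Holstein-Friesian cattle (limma), beside 5.02% of all probe sets. At an unadjusted p under 0.05 (limma), 3 were higher and 1 lower, beside 2464 higher and 2720 lower of all 24016 probe sets. In Brahman cattle 3 rose and 1 fell (30.8%, beside 19.8% of all probe sets). The ubiquitin-activating enzyme UBA6 was at 1.47 and the conjugating enzymes UBE2L6 and UBE2D2 at 1.33 and 0.72 (limma, adjusted p = 0.0126, 0.0129 and 0.0232), but the other probe sets of UBA6 and UBE2L6 stood at 0.01 and -0.59. UFD1, a partner of the segregase VCP, fell by 1.21 (limma, adjusted p = 0.0026), and its other 2 probe sets stood at -0.26 and 0.02. With the integrity index in the model UBA6, UBE2L6 and UBE2D2 were at 0.82, 0.58 and 0.30 and did not pass (limma, adjusted p = 0.260, 0.299 and 0.444), and UFD1 was at -0.75 (limma, adjusted p = 0.0491). All 4 passed without the 2 arrays of lowest index, where 4 of the 13 genes were higher and 3 lower in Brahman cattle. The share of all probe sets called lower in that fit is given above.

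Of 11 measured genes of MHC class I peptide loading and its interferon regulation, 0 passed in Holstein-Friesian cattle (limma), beside 5.02% of all probe sets. At an unadjusted p under 0.05 (limma), 2 were higher and 1 lower, beside 2464 higher and 2720 lower of all 24016 probe sets. In Brahman cattle 1 rose and 1 fell (18.2%, near the 19.8% of all probe sets). The interferon gamma receptor chain IFNGR2 was at 0.51 (limma, adjusted p = 0.0273), and at 0.56 with the index in the model (limma, adjusted p = 0.127). CALR, a chaperone of class I loading, was at -3.58 ± 1.00 (limma, adjusted p = 0.0296), at -2.16 without the 2 arrays of lowest index (limma, adjusted p = 0.0014) and at -0.20 with the index as a covariate (limma, adjusted p = 0.729). TAP2, a chain of the peptide transporter, did not pass, at 0.71 in Holstein-Friesian and 0.59 in Brahman cattle (limma, adjusted p = 0.140 and 0.133).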

How the data were processed

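The deposited values are log2 expression, 1 per probe set and array, which the authors made with RMA, per the submitters' processing notes; the log2 scale was inferred from their range. Software, version and chip definition were not given in the sources used here. Gene names came from the platform annotation. After 112 control probe sets were left out, 24016 were tested without a filter on low signal. A linear model with a mean for each of the 4 groups was fitted to the 12 arrays with limma 3.58.1 in R 4.3.3 (8 residual and 3.03 prior degrees of freedom). Tests were two-sided, with Benjamini-Hochberg adjustment over all probe sets within each of 5 comparisons and a threshold of 0.05. The 12 animals were separate, and no 2 arrays shared over 0.104% of values. Detection calls were not used, and precision is limited by the number of arrays.

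Members and lists were chosen with earlier results of these data known. Named in each comparison were the members past the threshold, up to 10 of the strongest in each direction, or otherwise the 5 with the smallest p. For infested against naive skin, the catalytic pairs, PSME1 and PSME2 were always named, with up to 4 genes of each list. Other members named for not overlapping between groups, or for their spread, were chosen after their values were seen. In Holstein-Friesian cattle, naive and infested arrays of the same number deviated together (correlations 0.113 to 0.249), and those of the other 5 pairs of groups did not all exceed 0.1, so the replicate block was an alternative and is given where it changed a call. Also tried were leaving out probe sets below the 40% quantile of mean signal, cyclic loess, median centring, array weights, a robust and trended prior, fitting 6 arrays at a time, the RNA integrity index as a covariate, leaving out the 2 arrays of lowest index or each array in turn, and the mean of a gene's probe sets. The procedure was tested on simulated data. Protein and promoter sequences were not analysed here.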

Additional observations from a re-analysis of the deposited data

How the results depend on the processing

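Called members kept their sign under every alternative run, while their sizes, the number of calls and the genes called changed. In Holstein-Friesian cattle the 2 members called became 1 under median centring (PSMB6 lost), under the trended and robust prior and with the replicate block (PSMD10 lost). They became 4 with array weights (PSMB9 and PSMD11 added as higher). Without the 2 arrays of lowest integrity index they also became 4 (PSMD11 added as higher and PSMD4 as lower). With only the 6 arrays of the comparison both PSMB6 and PSMD10 were lost and 1 other member, PSMD4, was called lower. In Brahman cattle the 8 members called became 14 with array weights, 2 with the index as a covariate (median of members -0.12) and 3 with only the 6 arrays (PSMA5, PSMB6 and PSMC2). Median centring lost PSMB7 and PSMC4. The replicate block kept all 8 and added PSMD13. Leaving out each array gave 0 to 4 members in Holstein-Friesian cattle and from 2, with naive Brahman 3 left out, to 10, with infested Holstein-Friesian 1 left out, in Brahman cattle, with medians of -0.23 to -0.04 and -0.30 to -0.18. Among infested animals the breed comparison gave 0 to 1 members (median -0.26 to -0.07), 1 with array weights and 4 without the 2 arrays of lowest index. Among naive animals it gave 0 (median -0.04 to 0.09), and the breed difference gave 0 (median -0.31 to -0.11), or 2 without those 2 arrays. Over all probe sets, the 1206 calls in Holstein-Friesian cattle became 4589 with array weights, 2022 with the covariate, 4076 without the 2 arrays and 157 to 2563 when an array was left out. The 4753 calls in Brahman cattle became 7657, 1808 and, with only 6 arrays, 3000, or 2216 to 5567. The 6 calls between naive breeds became 13 with the trended and robust prior, 400 with array weights, 17 with the covariate, 66 without the 2 arrays, 64 with 6 arrays and 5 to 37 without an array. The 40 calls between infested breeds became 25 with the low-signal filter, 1082 with array weights, 2200 without the 2 arrays, 1 with 6 arrays and 11 to 1235 without an array. The 1 call of the breed difference became 2 with cyclic loess, 648 with array weights, 0 with the replicate block, 1131 without the 2 arrays and 0 to 390 without an array. That difference has no fit on 6 arrays. Median centring moved the share of calls that were higher from 53.4% to 63.4% in Holstein-Friesian and from 48.2% to 60.2% in Brahman cattle. With 3 arrays per group, the number of arrays limits every call.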

Other observations

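Among 9120 genes outside the members, those whose 12 array values ran most closely with the mean of the 13 standardised core members (alpha ring and constitutive beta ring) were ACP1 and CMPK1 (Pearson r of 0.92 each), HINT1 and DNAJC19 (0.92 each), NDUFV2 (0.91), NCBP2, ATP5PF, CRLS1, ATP5PD and PPA2 (0.90 each). NDUFV2 belongs to complex I of the respiratory chain, ATP5PF and ATP5PD to the mitochondrial ATP synthase, and CRLS1 makes cardiolipin, a lipid of the inner mitochondrial membrane. CMPK1 was at -0.72, DNAJC19 at -0.77, NDUFV2 at -0.53 and NCBP2 at -0.90 in infested Brahman skin, all passing (limma, adjusted p = 0.0296, 0.0194, 0.0308 and 0.0129). The share of all probe sets called was 19.8% in Brahman cattle. None of the 10 passed in Holstein-Friesian cattle, where 5.02% of all probe sets were called. The arrays share their group, their animal and their RNA integrity, so these correlations are a description with no test.

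Within the members, the values of PSMB4 (0.85), PSMC4 (0.82), PSMA6 (0.81) and PSMB5 (0.80) correlated most with the mean of the other core members over the 12 arrays. The lowest correlations were those of PSMB2 (-0.23), PSMB9 (-0.37) and PSMD11 (-0.58), and those of PSMB2 and PSMB9 were weak.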
